A study of Mus musculus with 5 samples.

Results

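Distal convoluted tubule (DCT) nuclei made up 485 of the 16359 kidney nuclei in 5 single-nucleus RNA libraries. They were chosen by their own transcripts, counted as unique molecular identifiers (UMIs). A nucleus counted as DCT when it had at least 200 detected genes, at least 2 UMIs of Slc12a3 and at least 3 UMIs summed over Slc12a3, Trpm6, Abca13 and Sall3. This sum also had to exceed the sum over the thick ascending limb genes Slc12a1 and Umod, and the sum over the connecting tubule and collecting duct genes Egfem1, Scnn1b, Scnn1g and Aqp2. Levels of these 10 genes in DCT nuclei therefore follow from the choice and are given as description only.

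The nuclei came from kidneys of male mice, 10 to 12 weeks old at surgery, that carried 3 transgenes written as Six2-TGC; Rosa26rtTA ; pTRE-H2BeGFP. Doxycycline food (625 mg/kg), given to every group from a few days after birth, switches on a green fluorescent histone (GFP) in cells descended from Six2-expressing nephron progenitors. Sorted GFP-positive nuclei were taken 64 h, 96 h and 28 d after both renal pedicles had been clamped and released (ischaemia-reperfusion injury, IRI), and from kidneys labelled as having no injury. The last library held GFP-negative nuclei without injury, which the labels call non-nephron. Whether the animals without injury had sham surgery is not clear from the labels, and both libraries without injury carry the same serum values (creatinine 0.122 mg/dL, urea nitrogen 26.1 mg/dL), so they may share an animal. After 64 h, 96 h and 28 d of reperfusion serum creatinine was 0.375, 0.312 and 0.144 mg/dL and urea nitrogen 37.0, 91.8 and 31.7 mg/dL. Every group had 1 library. No test between groups was possible, no p-value is given, and every interval below is a 95% interval for counting error alone.

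The DCT is the short nephron segment beyond the macula densa that reclaims sodium chloride through the thiazide-sensitive cotransporter NCC, encoded by Slc12a3, and magnesium through the channel TRPM6. NCC is switched by phosphorylation, through the WNK kinases and their target SPAK, and WNK kinases are degraded by the KLHL3-cullin 3 ligase. The late DCT and the connecting tubule also carry calcium across the cell, with TRPV5 at the apical side, calbindin in the cytosol, and the sodium-calcium exchanger NCX1 (Slc8a1) at the basolateral side.

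The 5 libraries held between 1922002 and 7153971 UMIs, and pairs of libraries shared 9 to 20 barcodes, none of them DCT nuclei. Depth differed between the libraries and moved with the groups. The median DCT nucleus had 1858 UMIs without injury, 1023 at 64 h, 450 at 96 h and 851 on day 28, and 1390 in the GFP-negative library. Summed over nuclei, DCT UMIs numbered 237381, 112982, 31537 and 75148 along the GFP-positive series and 261982 in the GFP-negative library. A gene with 0 UMIs could thus have reached 12.6 CPM (UMIs scaled to the same total in every sum) without injury, 26.6 CPM at 64 h, 95.1 CPM at 96 h, 39.9 CPM on day 28 and 11.5 CPM in the GFP-negative library. The median number of Slc12a3 UMIs per DCT nucleus was 21, 8, 5 and 13 along the GFP-positive series and 22 in the GFP-negative library. Some proximal tubule nuclei, which should lack the gene, had an Slc12a3 UMI. They were 7.47%, 2.52%, 2.21% and 3.75% along the series and 17.1% in the GFP-negative library. Nuclei counted as DCT were left out of the proximal tubule nuclei. The shares with at least 2 Slc12a3 UMIs, at most 0.234% of GFP-positive and 2.13% of GFP-negative ones, were therefore held low by the definition. Nuclei near the limit of the rule, with 2 to 4 Slc12a3 UMIs, were 1 of 93 without injury, 29 of 99 at 64 h, 24 of 56 at 96 h, 6 of 65 on day 28 and 6 of 172 in the GFP-negative library.

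DCT markers that took no part in the rule were also high in these nuclei, and connecting tubule markers exceeded the other nuclei by a larger factor. Summed over Wnk1, Wnk4, Klhl3, Stk39, Calb1, Pvalb, Emx1, Egf, Kl, Cnnm2, Ppp1r1a and Kcnj10, the level in DCT nuclei was 4.71-fold that of the other nuclei without injury, 3.74-fold at 64 h, 2.59-fold at 96 h, 4.58-fold on day 28 and 4.29-fold in the GFP-negative library. Pvalb, the calcium buffer parvalbumin known from the early DCT, was at or near 0 in every library, with at most 4 UMIs. The connecting tubule markers outside the rule were Calb1, Slc8a1, Trpv5, S100g and Klk1, with Calb1 on both lists. Their sum was 37.3-fold that of the other nuclei without injury, 13.2-fold at 64 h and 6.64-fold at 96 h. It was 24.1-fold on day 28 and 15.5-fold in the GFP-negative library. Without injury Slc8a1 gave 4537 of the 4858 UMIs of this list. Markers of thick ascending limb outside the rule summed to 222 to 481 CPM in 4 libraries, against 229 to 437 CPM in the other nuclei. On day 28 they summed to 532 CPM in DCT nuclei and 342 CPM in the other nuclei, a ratio of 1.56 (1.11–2.13). Podocyte, endothelial, fibroblast and immune lists each summed to at most 168 CPM, and the macula densa list (Nos1, Ptgs2, Robo2) to 17 UMIs without injury and at most 3 elsewhere. The intercalated list summed to 254 CPM at 96 h, from 8 UMIs, against 89.9 CPM in the other nuclei. That ratio was 2.82 (1.20–5.69), and the ratio lay between 0.446 and 0.617 in every other library.

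Proximal tubule transcripts in DCT nuclei differed between the libraries. The 12 proximal tubule markers (Lrp2, Cubn, Slc34a1 and others) summed to 10612 CPM in DCT nuclei without injury, 1788 CPM at 64 h, 2505 CPM at 96 h and 9075 CPM on day 28, and to 2218 CPM in the GFP-negative library, with 11 or 12 of the 12 detected in each. Nuclei with at least 5 such UMIs per 1000 were 43 of 93 without injury, 5 of 99 at 64 h, 9 of 56 at 96 h, 29 of 65 on day 28 and 7 of 172 in the GFP-negative library. Without injury they were mainly deep nuclei. The 45 DCT nuclei with at least 2000 UMIs had a median of 13.3 proximal tubule UMIs per 1000, against 2.31 in the 48 shallower ones, and median Slc12a3 UMIs of 24 and 19. Only 3 nuclei were as deep at 64 h, 0 at 96 h and 6 on day 28. No doublets were removed, and whether these nuclei hold RNA of 2 cells was not tested. Where leaving out the nuclei rich in proximal tubule transcripts moved a gene's printed ratio between libraries by over 1.5 times, the value without them is also given. The genes 4930556J24Rik and Gm17359, named below, were not checked in this way.

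**Figure D1:**
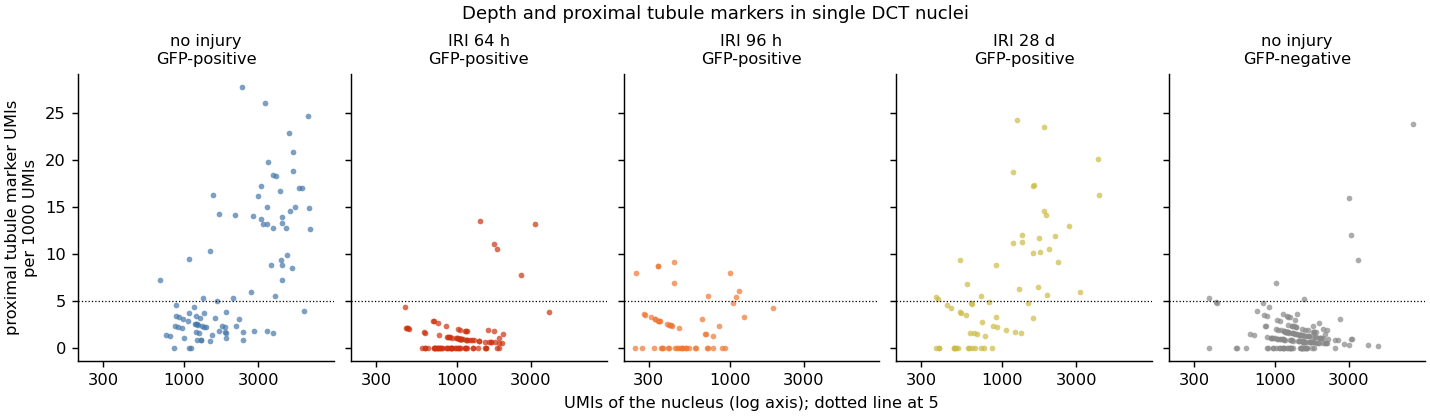
Each point is a DCT nucleus in 1 of 5 libraries, with its UMIs on a log axis (x) and its proximal tubule marker UMIs per 1000 UMIs (y); the dotted line marks 5 per 1000. In the library without injury 43 of 93 GFP-positive nuclei lie on or above the line, against 5 of 99 at 64 h, where most nuclei are also shallower.

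DCT nuclei were 2.65% (2.14–3.24) of the GFP-positive nuclei in the library without injury, which compared with 3.29% (2.68–3.99) at 64 h, 1.75% (1.32–2.27) at 96 h and 1.97% (1.52–2.5) on day 28. They were 5.15% (4.43–5.96) of the GFP-negative nuclei, above the share in every GFP-positive library, although the nuclear label is driven in the nephron lineage. With every barcode thinned to 500 UMIs the share was 2.30% at 64 h and 0.790% at 96 h, and the share without injury moved by less than its own interval. A share can differ through fewer DCT nuclei or through less Slc12a3 RNA per nucleus, and these cannot be told apart here.

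**Figure D2:**
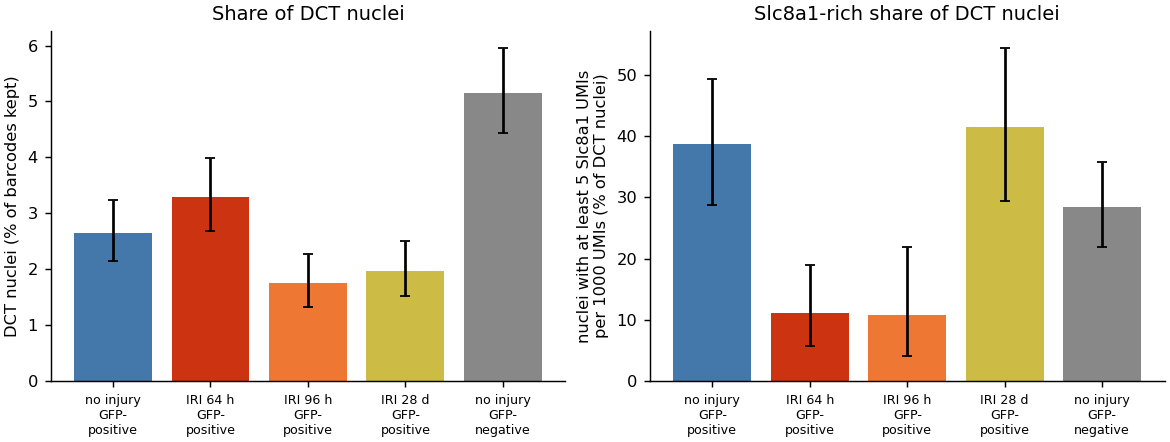
Left, DCT nuclei as a percentage of the nuclei kept in each of 5 libraries; right, nuclei with at least 5 Slc8a1 UMIs per 1000 as a percentage of DCT nuclei. Bars start at 0 and error bars are exact 95% binomial intervals, 1 library per bar. In the right panel 64 h (11.1%) and 96 h (10.7%) stand lowest, against 38.7% in the GFP-positive library without injury and 41.5% on day 28.

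Beyond the genes of the rule, DCT nuclei held other transcripts at higher levels than the remaining nuclei, which is a description since the rule chose the nuclei. Of 2713 genes with at least 50 UMIs over all DCT nuclei, 93 were at least 2-fold higher than in the other nuclei of the same library in all 5 libraries, 44 at least 2-fold higher than in thick ascending limb nuclei and 26 at least 2-fold higher than in connecting tubule nuclei. The 20 with the largest smallest difference were led by Tmem52b, Tox3, Acss3, Slc8a1, Cwh43, Ltc4s, Ptgfr, Cadps2 and Calb1. Klhl3, the substrate adaptor that brings WNK kinases to the ubiquitin ligase, and Scnn1a, the alpha subunit of the epithelial sodium channel, were also among these 20. The connecting tubule nuclei were chosen by the connecting tubule and collecting duct genes of the rule, so they can include collecting duct nuclei. They numbered 68, 40, 14 and 34 along the GFP-positive series and 260 in the GFP-negative library. Tmem52b exceeded the other nuclei by 3.23 to 4.45 on the log2 scale and thick ascending limb nuclei by 1.60 to 2.42, but its difference from connecting tubule nuclei ranged from -0.68 to 2.43. Tox3, Acss3, Cwh43 and Ltc4s were likewise below connecting tubule nuclei in at least 1 library, while Ptgfr and Cadps2 were above them in all 5. Acss3 and Cwh43 were below only at 96 h, and Ltc4s at 96 h and on day 28. Those directions rest on few UMIs in the connecting tubule nuclei. Slc8a1 and Calb1 exceeded thick ascending limb nuclei by at least 4.90 and 4.15 on the log2 scale, but ranged from 1.93 and 3.45 below connecting tubule nuclei in the library where the DCT was lowest to 2.28 and 2.54 above them where it was highest. The lowest was at 96 h, where DCT nuclei had 2 Calb1 UMIs. Connecting tubule nuclei themselves had 4113 CPM of Slc8a1 in the GFP-negative library and 7635 to 16078 CPM in the GFP-positive ones, so this reference also differed between libraries.

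Within the DCT the exchanger gene Slc8a1 and the receptor gene Erbb4 were found in largely different nuclei. Slc8a1 (chromosome 17, 81373105 to 81738377, minus strand) encodes NCX1, which moves calcium out of the cell at the basolateral side, and Erbb4 (chromosome 1, 68032186 to 69108059, minus strand) encodes a receptor tyrosine kinase for neuregulins and heparin-binding EGF-like growth factor. Positions here and below are from GENCODE release 21 on the mouse build GRCm38 (mm10), and both spans cover the whole gene with its introns, which nuclear libraries count. The annotated promoters of both genes and of Slc12a3 (chromosome 8, 94329201 to 94366214, plus strand) are shown as context for the 3 genes that define or divide the nuclei. The sequences are from RefSeq on GRCm38.p6, run 5′ to 3′ on the gene's strand from 250 bases before to 50 after the annotated start, and show motif matches in capitals. Matches were sought on both strands to TATAAA, the core promoter element. The GC box was sought as GGGCGG, also on both strands.
Slc12a3, chr8:94328958-94329257, plus strand: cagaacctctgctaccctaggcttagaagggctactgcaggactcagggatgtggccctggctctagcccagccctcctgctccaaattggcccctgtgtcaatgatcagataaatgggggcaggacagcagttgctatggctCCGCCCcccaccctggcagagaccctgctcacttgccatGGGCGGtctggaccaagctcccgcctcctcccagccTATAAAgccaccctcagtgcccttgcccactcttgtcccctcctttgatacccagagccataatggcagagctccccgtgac
Slc8a1, chr17:81738338-81738637, minus strand: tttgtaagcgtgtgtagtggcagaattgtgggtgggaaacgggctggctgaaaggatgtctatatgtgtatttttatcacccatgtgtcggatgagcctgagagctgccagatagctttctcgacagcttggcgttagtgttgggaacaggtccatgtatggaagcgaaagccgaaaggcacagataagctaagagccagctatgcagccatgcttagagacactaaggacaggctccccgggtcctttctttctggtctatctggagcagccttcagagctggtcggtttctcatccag
Erbb4, chr1:69108010-69108309, minus strand: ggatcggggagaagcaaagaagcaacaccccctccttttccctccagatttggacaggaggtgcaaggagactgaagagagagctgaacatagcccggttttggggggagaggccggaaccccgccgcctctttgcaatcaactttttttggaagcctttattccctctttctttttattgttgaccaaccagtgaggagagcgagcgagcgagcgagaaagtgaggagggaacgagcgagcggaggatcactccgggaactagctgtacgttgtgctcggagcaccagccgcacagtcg
The Slc12a3 window holds 1 TATAAA and 2 GC boxes, and the Slc8a1 and Erbb4 windows hold neither. TATAAA occurs in 13.6% and GGGCGG in 35.7% of the 32851 promoter windows of this length, and the motifs do not overlap here. Slc8a1 is known to use different first exons in different tissues, so the window may not be the start used in the DCT.

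Slc8a1 was spread unevenly over DCT nuclei, either abundant or near 0. Without injury the nuclei ranged from 0 to 145 Slc8a1 UMIs per 1000, with a median of 0.783, and 36 of 93 had at least 5 per 1000, a limit set after the values had been seen. Only 1 of these 93 nuclei lay between 3 and 7 per 1000, and 2, 3, 5 and 8 did so at 64 h, 96 h, 28 d and in the GFP-negative library. Slc8a1-rich nuclei, those with at least 5 per 1000, were 38.7% (28.8–49.4) of DCT nuclei without injury, 11 of 99 or 11.1% (5.68–19.0) at 64 h, 6 of 56 or 10.7% (4.03–21.9) at 96 h, 27 of 65 or 41.5% (29.4–54.4) on day 28 and 49 of 172 or 28.5% (21.9–35.9) in the GFP-negative library. The intervals at 64 h and 96 h lie below the interval without injury, and those on day 28 and without injury overlap. Among nuclei poor in proximal tubule transcripts they made up 36.0% without injury, 11.7% at 64 h, 10.6% at 96 h, 30.6% on day 28 and 29.7% in the GFP-negative library. Among nuclei with at least 5 Slc12a3 UMIs they were 35 of 92 without injury, 9 of 70 at 64 h, 4 of 32 at 96 h, 26 of 59 on day 28 and 46 of 166 in the GFP-negative library. After thinning to 400 UMIs, which left all 93 nuclei without injury, 99 at 64 h, 37 at 96 h, 60 on day 28 and 170 in the GFP-negative library, Slc8a1 was seen in 48.4%, 18.2%, 13.5%, 53.3% and 37.1% of them. In proximal tubule nuclei of the same libraries the thinned share was 1.67%, 1.31%, 0.904%, 1.91% and 3.67%, and the unthinned shares were 64.5%, 26.3%, 23.2%, 63.1% and 50% of DCT nuclei.

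**Figure D3:**
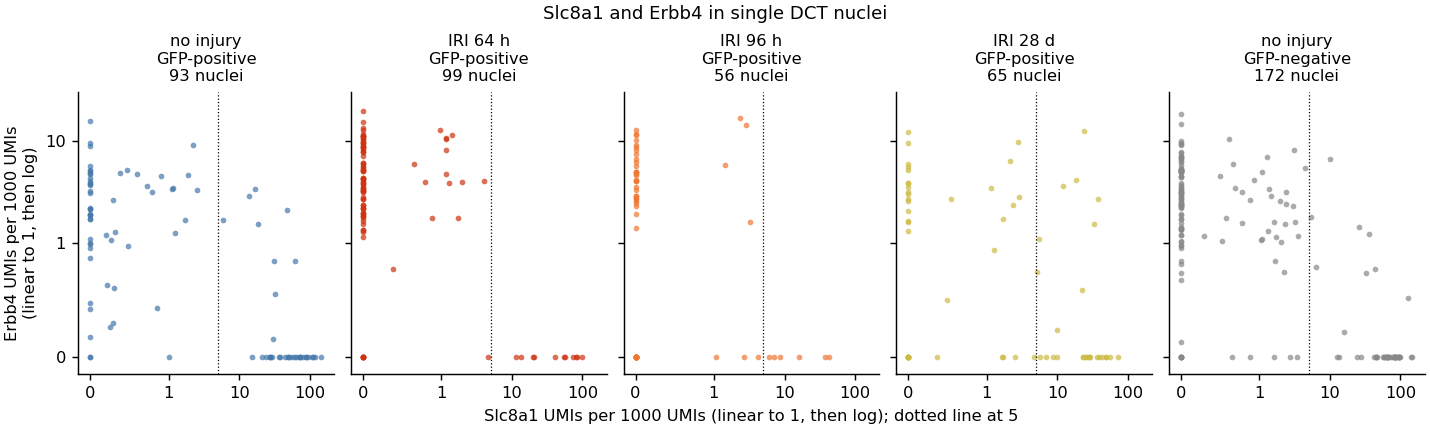
Each point is a DCT nucleus in 1 of 5 libraries, with its Slc8a1 (x) and Erbb4 (y) UMIs per 1000 UMIs; both axes are linear to 1 and logarithmic above it, and the dotted line marks 5 Slc8a1 UMIs per 1000. Nuclei right of the line are mostly at 0 Erbb4; at 64 h none of the 11 Slc8a1-rich nuclei had an Erbb4 UMI, while 80 of 99 nuclei had at least 1 per 1000.

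Erbb4 was at 1 UMI or more per 1000 in 47 of 93 DCT nuclei without injury, 80 of 99 at 64 h, 34 of 56 at 96 h, 29 of 65 on day 28 and 106 of 172 in the GFP-negative library. Of the Slc8a1-rich nuclei, 5 of 36 reached that level without injury, 0 of 11 at 64 h, 0 of 6 at 96 h, 6 of 27 on day 28 and 4 of 49 in the GFP-negative library. A count of 0 of 11 nuclei allows a share of up to 28.5%, and 0 of 6 a share of up to 45.9%. Of the remaining nuclei 73.7%, 90.9%, 68.0%, 60.5% and 82.9% did so. Nuclei with neither numbered 15, 8, 16, 15 and 21. Summed over nuclei, Slc8a1-rich nuclei held 47 Erbb4 UMIs and the others 318 without injury, which is a ratio of CPM of 0.187 (0.134–0.254). The counts were 0 and 531 at 64 h, 0 and 104 at 96 h, 35 and 77 on day 28 and 27 and 622 in the GFP-negative library.

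Several other calcium genes went with Slc8a1, and the precursor of epidermal growth factor, like Erbb4, was lower in Slc8a1-rich nuclei. These ratios describe nuclei that were split on 1 of their own transcripts. Calb1, which encodes the cytosolic calcium buffer calbindin (chromosome 4, 15881264 to 15908064, plus strand), was 10.8-fold (7.31–16.4) higher in Slc8a1-rich than in the other DCT nuclei without injury, 35.8-fold (11.7–146) at 64 h, 6.33-fold (2.66–18.3) on day 28 and 9.73-fold (7.42–12.9) in the GFP-negative library. At 96 h both Calb1 UMIs lay in Slc8a1-rich nuclei. Trpv5, the apical calcium channel, had 9, 0, 0, 2 and 4 UMIs in the 5 libraries, all in Slc8a1-rich nuclei. Kl, which encodes klotho, was 3.84-fold (2.46–6.17) higher in Slc8a1-rich nuclei without injury and 7.43-fold (4.93–11.5) higher in the GFP-negative library, and the vitamin D receptor gene Vdr 2.42-fold (1.57–3.77) and 3.67-fold (2.49–5.47). At 64 h the ratios of Kl and Vdr were 6.93 (3.16–14.9) and 7.81 (3.38–17.9), and on day 28 they were 1.66 (0.883–3.22) and 1.27 (0.582–2.85). At 96 h Kl had 0 UMIs in Slc8a1-rich nuclei and 4 in the others, and Vdr 1 and 6. Egf (chromosome 3, 129677565 to 129755316, minus strand) was at 0.284 (0.223–0.359) of the level of the other nuclei without injury, 0.376 (0.232–0.593) on day 28 and 0.107 (0.0749–0.148) in the GFP-negative library. At 64 h the Egf ratio was 0.473 (0.150–1.15), and at 96 h Egf had 0 UMIs in Slc8a1-rich nuclei and 2 in the others. The orphan receptor gene Esrrg had a ratio of 1.10 (0.959–1.26) without injury, 1.24 (0.918–1.66) at 64 h, 2.48 (1.26–4.54) at 96 h and 0.994 (0.784–1.26) on day 28. Slc12a3 itself was at 0.906 (0.828–0.991) without injury, 1.51 (1.26–1.79) at 64 h, 2.1 (1.5–2.87) at 96 h and 0.849 (0.742–0.97) on day 28. Connecting tubule transcripts of the rule were present in 11 of the 36 Slc8a1-rich nuclei and 5 of the 57 others without injury, and in 16 of 49 and 16 of 123 in the GFP-negative library. They were in 2 of 11 and 6 of 88 at 64 h, and in 9 of 27 and 0 of 38 on day 28. At 96 h the order was reversed, with 0 of 6 and 7 of 50. Slc8a1-rich nuclei at 96 h had a median of 330 UMIs, so few Slc8a1 UMIs reached the limit there.

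The comparison of IRI with no injury asked which DCT transcripts differed early and late after clamping. Genes were compared as ratios of CPM in summed DCT nuclei when they had at least 20 UMIs in both sums together. A gene was counted as higher or lower from a 1.5-fold difference. The 3 comparisons share the same library without injury. At 64 h 19.9% of 3337 genes were at least 1.5-fold higher and 24.7% at least 1.5-fold lower. At 96 h 20% of 2601 genes were higher and 39.5% lower, or 519 and 1028 genes, with a median log2 difference of -0.31. At 28 d 17.2% of 3008 genes were higher and 18.6% lower. The pair of libraries without injury, GFP-positive over GFP-negative, gave 21.7% higher and 16.4% lower among 4403 genes. At 96 h scaling by trimmed means (TMM) or by median ratios (DESeq2) raised every log2 value by 0.18 or 0.26 and gave 665 higher and 862 lower, or 753 higher and 786 lower. At 96 h the median log2 difference was also 0.14 among the shortest genes, up to 33.5 kb, and -0.45 among the longest, above 140.9 kb, when the genes were split by length into 4 equal sets. In the other nuclei of the library these medians were 0.60 and 0.03, and in DCT nuclei at 64 h they were -0.12 and 0.07. The part of gene length in the 96 h ratios was not tested.

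Calcium handling genes were lower as a group early after injury. Of the 12 genes listed, 9 were measured at 64 h, where 2 were higher and 5 lower, where 19.9% and 24.7% of all genes were, with a median log2 difference of -0.74 against -0.01 for all genes. At 96 h 2 of 8 were higher and 5 lower, where 20% and 39.5% of all genes were, with a median of -1.11 against -0.31. On day 28 1 of 8 was higher and 3 were lower, where 17.2% and 18.6% of all genes were, with a median of -0.24 against -0.0035. In nuclei with little Slc8a1 the calcium medians were -0.27 at 64 h, -0.28 at 96 h and 0.45 on day 28. Slc8a1, by which these nuclei were chosen, was not taken off the list for these medians. Slc8a1 stood at 19113 CPM without injury, 5859 CPM at 64 h, 1998 CPM at 96 h and 12575 CPM on day 28, and at 19978 CPM in the GFP-negative library. Its ratio to no injury was 0.307 (0.282–0.333) at 64 h, 0.104 (0.0802–0.134) at 96 h and 0.658 (0.613–0.706) on day 28, each below the value in both libraries without injury. Within Slc8a1-rich nuclei alone the ratio was 1.24 at 64 h, 0.530 at 96 h and 0.559 on day 28, from sums of 11, 6 and 27 nuclei against 36. Because Slc8a1 itself chose these nuclei, their Slc8a1 ratios are given as description only. Calb1 had 21 UMIs (186 CPM) at 64 h, 2 (63.4 CPM) at 96 h and 45 (599 CPM) on day 28, against 276 (1163 CPM) without injury and 356 (1359 CPM) in the GFP-negative library. Its ratio to no injury was 0.160 (0.0974–0.249), 0.0545 (0.00657–0.199) and 0.515 (0.367–0.708). At 64 h the Calb1 ratio was 0.601 (0.345–0.983) within Slc8a1-rich nuclei and 0.181 (0.0462–0.515), from 4 UMIs, in the others.

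Kl, whose product klotho stabilises TRPV5 at the membrane, was at 0.598 (0.387–0.898) of its level without injury at 64 h, 0.276 (0.0739–0.728) at 96 h and 1.33 (0.923–1.90) on day 28. Among nuclei poor in proximal tubule transcripts these ratios were 0.819, 0.112 (0.00274–0.681) from 1 UMI, and 2.34. At 64 h the Kl ratio was 1.49 (0.781–2.65) within Slc8a1-rich nuclei and 0.826 (0.423–1.57) in the others, so the value over all DCT nuclei lay below both, with Slc8a1-rich nuclei at 11.1% of DCT nuclei against 38.7% without injury. Vdr, the receptor for active vitamin D, was at 0.573 (0.360–0.884), 0.532 (0.209–1.14) and 0.957 (0.614–1.45), and at 64 h it was at 1.75 (0.884–3.2) within Slc8a1-rich nuclei and 0.540 (0.268–1.03) in the others. The parathyroid hormone receptor gene Pth1r went the other way, with 36 UMIs at 64 h (319 CPM), 25 at 96 h (793 CPM) and 18 on day 28 (240 CPM) against 41 (173 CPM) without injury and 39 (149 CPM) in the GFP-negative library. Its ratios were 1.84 (1.15–2.96), 4.59 (2.67–7.73) and 1.39 (0.750–2.47). In nuclei with little Slc8a1 they were 3.82, 9.06 and 2.60. Casr, the calcium-sensing receptor, had 13 UMIs at 64 h against 9 without injury, a ratio of 3.04 (1.20–8.04), or 1.98 (0.663–7.10) in nuclei poor in proximal tubule transcripts, and its 64 h level (115 CPM) equalled that in the GFP-negative library (30 UMIs, 115 CPM). S100g, which encodes the small calcium buffer calbindin-D9k, had 2 UMIs at 64 h and 1 at 96 h, but 18 on day 28, against 19 without injury, and its ratios were 0.221 (0.0250–0.917), 0.396 (0.00953–2.49) and 2.99 (1.48–6.02). The plasma membrane calcium pump genes Atp2b1 and Atp2b4 had intervals that included 1 at all 3 times.

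**Figure D4:**
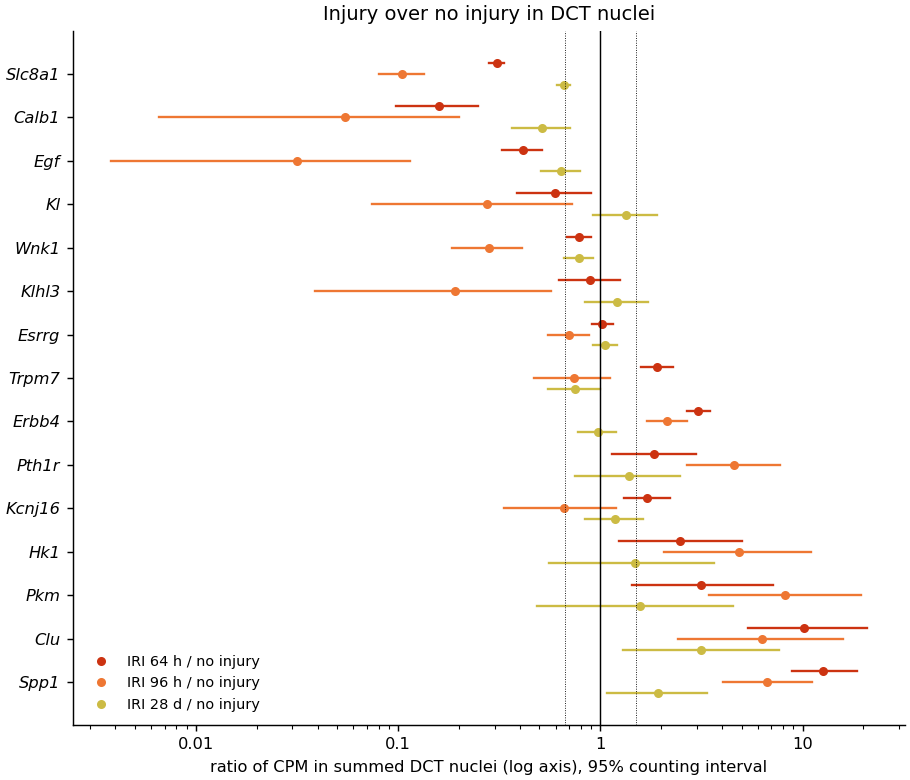
Ratio of CPM in summed DCT nuclei of each IRI library over the GFP-positive library without injury, for 15 genes on a log axis, with 95% counting intervals as horizontal bars and 1 library per group; dotted lines mark 1.5-fold in either direction. Slc8a1, Calb1 and Egf lie left of 1 at all 3 times (Slc8a1 at 0.307, 0.104 and 0.658), and Spp1 and Clu lie right of 1 (Spp1 at 12.7, 6.69 and 1.93).

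Genes of salt transport and the WNK pathway were called higher or lower at shares not far from those of all genes. At 64 h 2 of 17 measured genes were higher and 4 lower, where 19.9% and 24.7% of all genes were, with a median log2 difference of -0.17. At 96 h 3 of 16 were higher and 8 lower, where 20% and 39.5% of all genes were, with a median of -0.56 against -0.31 for all genes. On day 28 3 of 16 were higher and 1 lower, where 17.2% and 18.6% of all genes were, with a median of 0.14. Slc12a3, which the rule required, stood at 8692 CPM at 64 h, 10369 CPM at 96 h and 11830 CPM on day 28, against 8446 CPM without injury and 14982 CPM in the GFP-negative library. Wnk1, whose product and its kidney-specific form act upstream of SPAK, stood at 2487, 888 and 2475 CPM along the 3 times after injury, against 3164 CPM without injury and 4443 CPM in the GFP-negative library, with ratios of 0.786 (0.683–0.903), 0.281 (0.185–0.409) and 0.782 (0.663–0.920). In nuclei poor in proximal tubule transcripts the Wnk1 ratios were 0.516, 0.168 and 0.788. Klhl3 had 50, 3 and 45 UMIs after injury against 118 without it, with ratios of 0.890 (0.626–1.25), 0.191 (0.0389–0.573) and 1.21 (0.835–1.71). Stk39, which encodes SPAK, was at 1.41 (1.01–1.95), 0.543 (0.213–1.16) and 1.11 (0.726–1.65). Wnk4 was at 0.874 (0.579–1.29), 2.20 (1.36–3.44) and 1.35 (0.897–1.99), and its 96 h ratio was 1.44 in nuclei poor in proximal tubule transcripts.

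The DCT nuclei at 64 h were also split on Slc12a3 itself, as a description, since the rule used this gene. The 29 nuclei with 2 to 4 Slc12a3 UMIs had 0 Klhl3 UMIs, and 968 CPM of Wnk1, 212 CPM of Egf and 605 CPM of Slc8a1. The 70 nuclei with 5 or more had 625 CPM of Klhl3, 3115 CPM of Wnk1, 1088 CPM of Egf and 8031 CPM of Slc8a1. Erbb4 was at 5689 CPM in the 29 nuclei and 4291 CPM in the 70, and Esrrg at 3208 and 3916 CPM. The 2 sets had median depths of 1042 and 1010.5 UMIs. Within the nuclei with at least 5 Slc12a3 UMIs the ratios to no injury were 0.986 for Wnk1 and 1.26 for Klhl3 at 64 h, and 0.336 and 0.358 (0.0728–1.07) at 96 h, while that of Slc8a1 was 0.423 at 64 h and 0.159 at 96 h.

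Among basolateral transport genes, Kcnj16, the partner of the basolateral potassium channel gene Kcnj10, was at 1.70 (1.31–2.20) at 64 h, 0.659 (0.333–1.19) at 96 h and 1.18 (0.835–1.63) on day 28, where it was at 0.644 in nuclei poor in proximal tubule transcripts. Bsnd, which encodes the chloride channel subunit barttin, was at 0.286 (0.0549–0.954) at 64 h from 3 UMIs against 22. Slc4a4, a sodium bicarbonate cotransporter best known from the proximal tubule, was at 0.378 (0.236–0.581) at 64 h, and was 5.68-fold (3.74–8.93) higher in GFP-positive than in GFP-negative nuclei without injury. Both directions turned in nuclei poor in proximal tubule transcripts, with 3.81 (1.08–20.5) at 64 h, from 15 UMIs against 3, and 0.582 (0.109–2.03) for GFP-positive over GFP-negative. Atp1b1, the sodium pump beta subunit gene, was within 1.5-fold of no injury at all 3 times.

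Magnesium handling was measured on 6 of 11 genes. At 64 h 1 was higher and 2 lower with a median log2 difference of 0.01, at 96 h 0 were higher and 3 lower with a median of -0.81, and on day 28 0 were higher and 1 lower with a median of -0.23. Over all genes 19.9% were higher and 24.7% lower at 64 h, 20% and 39.5% at 96 h, and 17.2% and 18.6% on day 28. Egf, whose peptide product stimulates TRPM6, was lower at all 3 times. It had 94 UMIs at 64 h (832 CPM), 2 at 96 h (63.4 CPM) and 97 on day 28 (1291 CPM), against 479 (2018 CPM) without injury and 827 (3157 CPM) in the GFP-negative library. Its ratio to no injury was 0.412 (0.327–0.515), 0.0314 (0.0038–0.114) and 0.640 (0.509–0.797). In nuclei with little Slc8a1, where Egf is mostly found, the ratios were 0.299, 0.0232 (0.0028–0.0843) and 0.640, and in nuclei poor in proximal tubule transcripts 0.419, 0.0359 (0.00431–0.132) and 0.836. In thick ascending limb nuclei the Egf ratios were 0.818 at 64 h and 0.401 at 96 h, and the difference between the segments was not tested. Thinned to 400 UMIs, Egf was seen in 17 of 99 DCT nuclei at 64 h, 0 of 37 at 96 h and 16 of 60 on day 28, against 33 of 93 without injury and 84 of 170 in the GFP-negative library. Trpm7, the channel kinase related to Trpm6, was at 1.91 (1.59–2.29) at 64 h, 0.741 (0.470–1.12) at 96 h and 0.746 (0.553–0.992) on day 28, and its 64 h level of 2045 CPM stood beside 1070 CPM in GFP-positive and 1725 CPM in GFP-negative nuclei without injury. Cnnm2, a basolateral magnesium protein, was at 0.646 (0.344–1.15), 0.434 (0.0867–1.34) and 1.40 (0.816–2.32), and in nuclei poor in proximal tubule transcripts at 0.242 at 96 h and 0.722 on day 28. Fxyd2, the sodium pump gamma subunit gene, was at 1.01, 1.48 and 0.974.

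Erbb4 and Casr had the highest ratios among the listed hormone and growth factor receptor genes at 64 h, with Casr given above from few UMIs. Since Casr had to be higher to be measured, its place is a description. Erbb4 stood at 4700 CPM at 64 h, 3298 CPM at 96 h and 1490 CPM on day 28, against 1538 CPM without injury and 2477 CPM in the GFP-negative library. Its ratio to no injury was 3.06 (2.67–3.50), 2.15 (1.71–2.67) and 0.969 (0.777–1.20). The ratio depended on which DCT nuclei were summed. It was 2.19, 1.48 and 0.865 in nuclei with little Slc8a1, 1.95, 1.41 and 0.820 in nuclei poor in proximal tubule transcripts, and 1.40, 0.968 and 0.740 in nuclei that were both. In the other nuclei of the libraries the Erbb4 ratios were 2.80, 3.58 and 3.54, and in thick ascending limb nuclei 1.27, 1.00 and 1.24.

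Of the listed receptors 3 of 11 were higher and 3 lower at 64 h with a median log2 difference of -0.29, 2 of 8 higher and 5 lower at 96 h with a median of -0.82, and 1 of 10 higher and 0 lower on day 28 with a median of 0.01. Shares over all genes were 19.9% and 24.7% at 64 h, 20% and 39.5% at 96 h, and 17.2% and 18.6% on day 28. The receptor medians were 0.19 at 64 h, -0.06 at 96 h and -0.30 on day 28 in nuclei poor in proximal tubule transcripts. With Esr1, the estrogen receptor gene, at the bound that its 0 UMIs allow at 96 h, 4 were lower and the median was -0.37. Esr1 had 1 UMI at 64 h, 0 at 96 h and 15 on day 28, against 23 without injury and 28 in the GFP-negative library. Its ratio was 0.0914 (0.00222–0.563) at 64 h and 2.06 (1.00–4.12) on day 28, or 4.51 on day 28 in nuclei poor in proximal tubule transcripts. The mineralocorticoid receptor gene Nr3c2, which mediates aldosterone action in the late DCT, was at 0.991 (0.712–1.36), 0.612 (0.286–1.16) and 1.00 (0.680–1.45). Ghr, the growth hormone receptor gene, was at 0.509 (0.429–0.601) at 64 h and 0.458 (0.330–0.621) at 96 h in all DCT nuclei, but at 1.48 and 1.22 in nuclei poor in proximal tubule transcripts, so its direction turned with them.

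Most measured tubule transcription factor genes were within 1.5-fold of no injury at each time. At 64 h 3 of 12 were higher and 1 lower, where 19.9% and 24.7% of all genes were, with a median log2 difference of 0.34, which was -0.05 in nuclei poor in proximal tubule transcripts. At 96 h, where 20% and 39.5% of all genes were higher and lower, 0 of 10 were higher and 3 lower with a median of -0.24, which was 0.02 with median-ratio scaling, and on day 28 1 of 12 was higher and 1 lower with a median of 0.11. With Lhx1 and Esrrb, both at 0 UMIs at 96 h, set at their bounds, 2 were lower. Esrrg was at 1.02 (0.907–1.15), 0.699 (0.548–0.879) and 1.06 (0.924–1.21). The factors at least 1.5-fold higher at 64 h were Pax8 at 2.48 (1.67–3.69), or 3.74 in nuclei poor in proximal tubule transcripts, Grhl2 at 2.42 (1.27–4.64) and Gata3 at 2.36 (1.14–4.96), where Pax8 is a nephron lineage factor, Grhl2 an epithelial factor of the distal nephron and Gata3 a factor of the distal nephron and collecting duct. Gata3 stood at 159 CPM at 64 h, against 157 CPM in the GFP-negative library. Emx1, a homeobox gene of the distal tubule, was at 0.780 (0.379–1.51), 0.215 (0.0053–1.28) and 1.35 (0.687–2.54), and in nuclei poor in proximal tubule transcripts at 0.416 (0.188–0.877), 0.138 (0.00334–0.852) and 0.820 (0.272–2.08), so its day 28 direction turned.

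Few injury genes could be measured in DCT nuclei. Only 4 of the 30 listed genes passed the limit of 20 UMIs at 64 h, 3 at 96 h and 4 on day 28. Of these, 3, 2 and 3 were at least 1.5-fold higher and 0, 0 and 1 lower, but a gene such as Lcn2 passed only through its UMIs after injury and had to be higher, so the counts are a description. Itgb6, the integrin beta 6 gene, was at 1.28 (0.901–1.82), 1.00 (0.500–1.84) and 0.211 (0.0753–0.477), and at 2.29, 2.08 and 0.564 in nuclei poor in proximal tubule transcripts. Spp1, which encodes osteopontin, had 217 UMIs at 64 h (1921 CPM), 32 at 96 h (1015 CPM) and 22 on day 28 (293 CPM), against 36 (152 CPM) without injury and 47 (179 CPM) in the GFP-negative library. Its ratios to no injury were 12.7 (8.87–18.6), 6.69 (4.02–11.1) and 1.93 (1.08–3.37), and 7.58, 4.04 and 1.57 in nuclei poor in proximal tubule transcripts. Clu, which encodes the chaperone clusterin, had 58, 10 and 12 UMIs against 12, with ratios of 10.2 (5.39–20.8), 6.27 (2.43–15.8) and 3.16 (1.3–7.69), and 5.43, 3.41 and 1.88 in nuclei poor in proximal tubule transcripts. Lcn2, the injury marker NGAL, had 20 UMIs at 64 h, 11 at 96 h and 1 on day 28, against 0 in both libraries without injury, and was at least 14.0-fold higher at 64 h when set against 3 counts over the sum without injury, or at least 5.08-fold in nuclei poor in proximal tubule transcripts. Lcn2 was seen in 13.1% of DCT nuclei at 64 h and 14.3% at 96 h, against 0.906% and 1.18% of proximal tubule nuclei in the same libraries, whose median depths were 1465 and 571 UMIs. Spp1 was seen in 43.4% of DCT nuclei at 64 h after thinning to 400 UMIs, against 22.9% of proximal tubule nuclei, and in 7.53% and 4.13% without injury. In thick ascending limb nuclei 10 of 15 measured injury genes were higher at 64 h and 1 lower, where 19.3% and 17.3% of all genes were. Among the higher ones, Krt8, Havcr1, Sox4 and Tmsb10 were under the limit of 20 UMIs without injury. They passed only with their UMIs at 64 h, so this count is a description too. Havcr1, the injury marker KIM-1 of the proximal tubule, had at most 1 UMI in the DCT nuclei of any library.

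Measured glycolysis genes were more often higher than lower at 64 h and 96 h. At 64 h 5 of 8 measured genes were higher and 0 lower, with a median log2 difference of 0.68, at 96 h 6 of 6 were higher with a median of 1.52, and on day 28 3 of 6 were higher and 0 lower with a median of 0.61. Over all genes 19.9%, 20% and 17.2% were higher at the 3 times, and 24.7%, 39.5% and 18.6% lower. Intervals lay above 1 for 3 of the 8 genes at 64 h, 4 of 6 at 96 h and 0 of 6 on day 28. Pkm, which encodes pyruvate kinase M, had 18 UMIs at 64 h (159 CPM) and 13 at 96 h (412 CPM) against 12 (50.6 CPM) without injury and 24 (91.6 CPM) in the GFP-negative library, with ratios of 3.15 (1.44–7.17) and 8.15 (3.43–19.6). Hk1, a hexokinase gene, was at 2.47 (1.23–5.02) and 4.87 (2.06–11). With 12 UMIs without injury, Pkm passed the limit of 20 UMIs only through its UMIs after injury and had to be higher. Hk1, with 17 UMIs without injury, passed in the same way at 96 h and also had to be higher there. The counts of higher glycolysis genes are therefore in part a description. In nuclei poor in proximal tubule transcripts Pkm was at 1.85 and 3.90, and Hk1 at 1.69 and 2.69. Ldhb, a lactate dehydrogenase subunit gene, was at 1.35 (0.968–1.87), 2.15 (1.36–3.3) and 0.838 (0.522–1.3). The uninjured libraries differed in the same list, with 0 of 8 genes higher and 5 lower in GFP-positive than in GFP-negative nuclei and a median of -0.65. Over all genes 21.7% were higher and 16.4% lower. The reference of the ratios above was thus itself low beside the GFP-negative library in this list. Against the GFP-negative library the 28 d median was -0.23. Thick ascending limb nuclei had 5 of 12 glycolysis genes higher and 1 lower at 64 h, where 19.3% and 17.3% of all genes were, with a median of 0.50.

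Genes of the citric acid cycle and fatty acid oxidation showed no common direction. For every list in this paragraph, the shares over all genes were 19.9% higher and 24.7% lower at 64 h. They were 20% and 39.5% at 96 h, and 17.2% and 18.6% on day 28. At 64 h 2 of 17 were higher and 4 lower with a median log2 difference of -0.21, at 96 h 1 of 14 was higher and 4 lower with a median of -0.19, which was 0.07 with median-ratio scaling, and on day 28 2 of 15 were higher and 0 lower with a median of 0.11. Acadm, the medium-chain acyl-CoA dehydrogenase gene, had 4 UMIs at 64 h and 1 at 96 h against 42 without injury, with ratios of 0.200 (0.0521–0.551) and 0.179 (0.00443–1.05), and was at 1.43 (0.785–2.51) on day 28. In nuclei poor in proximal tubule transcripts it had 4 UMIs at 64 h against 9 without injury, a ratio of 0.339, 0 UMIs at 96 h, and was at 0.668 (0.0702–3.23) on day 28 from 2 UMIs. Respiratory chain genes were at least 1.5-fold higher in 6 of 17 cases at 64 h with 0 lower, in 4 of 10 at 96 h with 1 lower, and in 3 of 15 on day 28 with 1 lower, with medians of 0.33, 0.51 and 0.14, but of -0.06, -0.19 and -0.02 against the GFP-negative library. Uqcrq, a complex III subunit gene, was at 2.45 (1.24–4.88), 3.76 (1.49–8.82) and 2.11 (0.925–4.62). Cytosolic ribosomal protein genes were higher in 2 of 9, 5 of 5 and 2 of 6 cases with 0 lower at each time, and medians of 0.34, 1.25 and 0.51. Rplp1 was at 2.31 (1.20–4.46), 4.14 (1.79–9.06) and 1.58 (0.660–3.54). These are short genes, and the 96 h library had higher medians for short genes in all nuclei. Heat shock and proteostasis genes were higher in 4 of 8, 2 of 5 and 3 of 6 cases and lower in 2, 1 and 1, with medians of 0.58, 0.40 and 0.64, but of -0.07 at 64 h and -0.15 at 96 h in nuclei with at least 5 Slc12a3 UMIs. At 96 h 0 were lower with Hsp90aa1, at 0 UMIs, set at its bound. Clock genes were higher in 1 of 5, 0 of 4 and 1 of 4 cases and lower in 1, 2 and 1, with medians of -0.03, -0.14 and -0.17, and the 96 h median was 0.12 with median-ratio scaling. Tef, a clock-controlled transcription factor gene, was at 0.278 (0.106–0.613) at 64 h, or 0.508 in nuclei poor in proximal tubule transcripts, and 2.25-fold (1.38–3.75) higher in GFP-positive than in GFP-negative nuclei without injury.

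Outside the lists, the genes furthest above no injury at 64 h by the near bound of their interval were Mid1, Mrap2, Xkr4, Sytl2, Nrxn3, Gm26917, Dysf, Dcdc2a, Adgrg3 and Peak1. Mid1, an X-linked gene that encodes a ubiquitin ligase bound to microtubules (chromosome X, 169685199 to 170005736, plus strand), had 413 UMIs at 64 h, 7 at 96 h and 85 on day 28, against 26 without injury and 20 in the GFP-negative library. Its ratios were 33.4 at 64 h, 2.03 at 96 h and 10.3 on day 28. The other nuclei of the same libraries had Mid1 ratios of 17.7, 0.777 and 10.6, so the difference at 64 h and 28 d ran through the whole library. Mrap2, which encodes an accessory protein of melanocortin receptors (chromosome 9, 87144306 to 87184045, plus strand), had 80, 27 and 1 UMIs after injury, against 6 without injury and 22 in the GFP-negative library. Its ratios were 28.0 at 64 h and 33.9 at 96 h in DCT nuclei, 16.9 and 15.7 in thick ascending limb nuclei, and 11.3 and 14.7 in the other nuclei. Only 1 Mrap2 UMI without injury lay in nuclei poor in proximal tubule transcripts, where the ratios were 57.9 (10.1–2317) and 66.6 (10.8–2751). Xkr4 had 28 UMIs at 64 h against 2 without injury, a ratio of 29.4 (7.42–255), with 2.75 in thick ascending limb nuclei and 1.85 in the other nuclei. With few UMIs without injury, Xkr4, Mrap2, Dysf and Adgrg3 passed the limit of 20 UMIs only through their UMIs at 64 h. They had to be higher, so their ratios in DCT nuclei are a description. Nrxn3, a neurexin gene, was at 7.88, 4.70 and 4.21 at the 3 times, against 1.81, 0.700 and 1.87 in thick ascending limb nuclei and 3.4, 3.64 and 3.22 in the other nuclei, and its ratio on day 28 was 9.02 in DCT nuclei poor in proximal tubule transcripts. Sytl2, which encodes a vesicle-docking protein, was at 10.5 at 64 h and 8.06 at 96 h. Differences between nuclear classes were not tested.

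The genes furthest below no injury at 64 h were RP24-362L9.2, Keg1, Slc7a13, Pcsk5, Slc6a15, Acsm2, Fut9, Slco1a6, Acsm1 and Eci3. Keg1 and Acsm2 were among the proximal tubule markers, and Slc7a13 encodes a proximal tubule aspartate and glutamate transporter. Keg1 had 24 UMIs in DCT nuclei at 64 h against 945 without injury, a ratio of 0.0534, or 0.236 (0.116–0.448) in nuclei poor in proximal tubule transcripts, with 0.0815 in thick ascending limb nuclei and 0.204 in the other nuclei. Nuclei poor in proximal tubule transcripts were chosen by Keg1 among other markers, so its ratio there is a description. At 96 h Keg1, RP24-362L9.2, Fut9, Arhgap42, Gas2, Nox4, Slc25a21, Hsd3b2, Erc2 and Slc7a13 were lowest, and Mrap2, Wfdc2, Ctsd, Actb, Nuak2, Dcdc2a, Sytl2, Pabpc1, Dlgap4 and Mt2 were highest. Wfdc2, which encodes the secreted protein HE4, had 24 UMIs at 96 h (761 CPM), 35 at 64 h (310 CPM) and 7 on day 28 (93.2 CPM), against 9 (37.9 CPM) without injury and 9 (34.4 CPM) in the GFP-negative library. Its 96 h ratio was 20.1 in DCT nuclei, 9.52 (3.93–26.4) in those poor in proximal tubule transcripts, 5.27 in thick ascending limb nuclei and 11.5 in the other nuclei. Ctsd, the gene of the lysosomal protease cathepsin D, was at 14.6 at 96 h. At 28 d Mid1, Kcnip4, Nrxn3, 4930556J24Rik, 4933427G17Rik, Gm17359, Spint2, Psap, Nfic and Cxxc5 were highest, and RP24-64C6.3, Ppfibp1, Lpl, Gm15810, RP24-362L9.2, Thrb, Zfp638, Cacnb2, Nasp and Scp2 were lowest. Kcnip4, which encodes a potassium channel interacting protein, had 26 UMIs on day 28 against 11 without injury, a ratio of 7.47, with 1.48 in thick ascending limb nuclei. Spint2, which encodes a serine protease inhibitor of the apical membrane, had 25 UMIs against 23, a ratio of 3.43, or 5.51 in nuclei poor in proximal tubule transcripts. Among others, Wfdc2 and Actb at 96 h and Kcnip4 at 28 d passed the limit of 20 UMIs only through UMIs after injury. These genes had to be higher. Pcsk5 and Eci3 at 64 h, and Cacnb2 and Nasp on day 28, had 0 UMIs at those times. They passed only through the library without injury and had to be lower.

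Both libraries without injury held DCT nuclei, which allowed the GFP sort to be compared within the segment. The genes furthest above in GFP-positive nuclei were Slc13a1, Dab2, Clec2h, Bnc2, Ugt2b37, Nox4, Stxbp5l, Slc5a12, Slc34a1 and Fut9. Slc34a1, the phosphate cotransporter of the proximal tubule, and Slc5a12, its lactate cotransporter, were both on the proximal tubule list. Slc34a1 had 466 UMIs in GFP-positive and 49 in GFP-negative DCT nuclei, a ratio of 10.5, and Slc13a1, a sulfate transporter gene, 313 and 6, a ratio of 57.6. Among nuclei poor in proximal tubule transcripts the ratio of Slc34a1 was 5.03 (3.28–7.79), from 60 and 37 UMIs, and that of Slc13a1 was 5.43 (1.38–25.3), from 7 and 4. Slc34a1 is among the markers by which these nuclei were chosen, so its ratio there is a description. Nuclei rich in these transcripts were 43 of 93 GFP-positive and 7 of 172 GFP-negative DCT nuclei.

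Salt transport and magnesium genes were more often lower than higher in GFP-positive nuclei. Salt transport and WNK genes were higher in 2 of 19 cases and lower in 8 with a median log2 difference of -0.27. Over all genes 21.7% were higher and 16.4% lower, with a median of 0.03. Magnesium genes were higher in 2 of 6 and lower in 4 with a median of -0.67. Calcium genes were higher in 0 of 9 and lower in 1 with a median of -0.17. These medians were 0.05 for salt transport, -0.26 for magnesium and 0.16 for calcium genes in nuclei poor in proximal tubule transcripts. Egf was at 0.639 (0.570–0.716), Klhl3 at 0.554 (0.440–0.694) and Wnk1 at 0.712 (0.649–0.781). In nuclei poor in proximal tubule transcripts Wnk1 was at 1.08, Klhl3 at 0.759 and Egf at 0.669. Slc8a1 was at 0.957 (0.919–0.996), and at 1.28 in nuclei poor in proximal tubule transcripts. The genes furthest below were Pappa, Plgrkt, Pnrc1, Lsamp, Slc4a9, Plcg1, Gpr137, Rtkn, Slc29a1 and Atp6v1c2, where Slc4a9 and Atp6v1c2 are known from intercalated cells. Intercalated cell markers summed to 71.6 CPM in GFP-positive and 317 CPM in GFP-negative DCT nuclei. Casr and Gata3, each at least 1.5-fold higher at 64 h than in GFP-positive nuclei without injury, stood near their GFP-negative level at that time.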

How the data were processed

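The files are gene-by-barcode matrices of UMI counts for 27998 genes in 5 single-nucleus libraries, as deposited by the authors. Per the labels' protocols, nuclei were sorted for DAPI and then for GFP, and 4000 were loaded per lane of the 10x Genomics Chromium v2 3′ assay. Per the submitters' processing notes, bcl2fastq 2.17, STAR 2.5.1b and Cell Ranger 2.1 were used with the build mm10, and per the series' design text reads were aligned to a pre-mRNA genome, so introns count. How barcodes were called as nuclei is not given in the sources used here. No doublet caller was run, and no doublets were removed.

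Barcodes with at least 200 detected genes were kept, DCT nuclei were chosen by the rule in the opening of the results, and their UMIs were summed per library. Thick ascending limb, connecting tubule and proximal tubule nuclei were chosen by UMIs of their own markers, and proximal tubule nuclei left out those of the other classes. Log2 differences used a pseudocount of 1 CPM, and genes entered with at least 20 UMIs in both sums together, leaving out the 10 genes of the rule. Ratios of CPM have exact conditional 95% Poisson intervals and shares have exact Clopper-Pearson intervals, both for counting error only. The limit for a count of 0 is 3 counts. List members were named for their role, and outside the lists the 10 genes furthest from a ratio of 1 each way by the near bound of their interval were named. The members and lists were chosen with earlier results of these data known, and the limit of 5 Slc8a1 UMIs per 1000 was set after seeing the data. The symbols of 56 names belong to more than 1 gene. Coordinates are from GENCODE M21 on the same build, where 119 of 119 genes looked up were found, and promoters from RefSeq on GRCm38.p6. The steps were tested on simulated data. Alternatives were other limits, scalings, thinning and subsets of nuclei. The scripts ran in R 4.3.3 with edgeR 4.0.16 (TMM factors only) and DESeq2 1.42.0 (size factors only), and in Python 3.11.15 with pandas 2.3.3, scipy 1.17.1, numpy 2.4.6 and matplotlib 3.10.9.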

Additional observations from a re-analysis of the deposited data

Results flagged for a closer look

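S100g, the gene of the small calcium buffer calbindin-D9k, had opposite directions in DCT nuclei at different times after IRI, with a ratio to no injury of 0.221 at 64 h and 0.396 at 96 h, from 2 and 1 UMIs, and of 2.99 on day 28 from 18 UMIs against 19. Slc8a1 differed in direction between segments on day 28, at 0.658 of its level without injury in DCT nuclei and at 3.31 in thick ascending limb nuclei. In thick ascending limb nuclei it stood at 421 CPM on day 28, against 127 CPM in GFP-positive and 494 CPM in GFP-negative nuclei without injury. Set against the GFP-negative library, Slc8a1 was lower on day 28 in both segments. Among genes outside the lists, 4930556J24Rik was at 0.46 at 64 h, 3.51 at 96 h and 3.29 on day 28 in DCT nuclei, and Gm17359 was at 0.41, 2.02 and 2.78. Neither was compared in nuclei poor in proximal tubule transcripts. None of these differences was tested, since each group had 1 library.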

How the results depend on the processing

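No paired analysis was possible because each group had 1 library. Over all alternatives, 1192 of 1302 recomputed gene ratios, 518 of 549 list medians, 63 of 102 counts of genes and 15 of 20 shares stayed close to the value reported. The cause of the shifts below was not tested. In nuclei poor in proximal tubule transcripts (an alternative chosen after seeing the data, like those on Slc8a1 and on the GFP-negative library) the direction turned for Ghr, at 1.48 at 64 h and 1.22 at 96 h, and in GFP-positive over GFP-negative nuclei for Slc8a1 at 1.28 and Wnk1 at 1.08. Slc8a1 was at 1.02 there without nuclei over 2 times the median depth. Against the GFP-negative library Fxyd2 was at 0.918 at 96 h and the glycolysis median at -0.23 on day 28, and with at least 400 genes Fxyd2 was at 0.943 at 96 h. The share of DCT nuclei was 1.10% at 96 h, 1.5% on day 28 and 6.38% in the GFP-negative library with at least 400 genes, and 2.30% at 64 h and 0.790% at 96 h when thinned to 500 UMIs. Counts of genes higher and lower moved most. With at least 50 UMIs they were 195 and 257 at 64 h, 96 and 352 at 96 h, 96 and 137 on day 28, and 339 and 211 for GFP-positive over GFP-negative; with at least 10 UMIs, in the same order, 1358 and 1579, 1426 and 1835, 1151 and 1213, and 1672 and 1496. With the larger sum thinned, 483 were lower at 64 h, 81 higher and 127 lower at 96 h, and 242 and 227 on day 28. Without nuclei over 2 times the median depth, 409 were lower at 64 h, 206 higher and 474 lower at 96 h, 282 and 308 on day 28, and 573 higher in GFP-positive nuclei. In nuclei poor in proximal tubule transcripts the counts were 409 and 248 at 64 h, 126 and 266 at 96 h, 133 and 175 on day 28, and 425 and 470 for GFP-positive over GFP-negative. In nuclei with little Slc8a1, 539 were lower at 64 h, 274 higher and 605 lower at 96 h, and 246 higher on day 28. Depth limits the 96 h values most, where a gene at 0 could have reached 95.1 CPM.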
